A study of Mus musculus with 12 samples.

Results

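The end of mouse chromosome 1 was followed gene by gene in iXist-ChrX cells, a female embryonic stem cell line from a 129S and Castaneus hybrid background, because clone C11 had lost the RNA of its 129S allele there. The 115 genes described, of 22556 in the count files, are those on chromosome 1 of mm10 whose lowest start is 180000000 or more and whose length is under 500000 bases, with Lbr, Lefty1 and Lefty2 left out. The segment was chosen by the 129S share and the total counts in C11, so all values that compare C11 with other libraries for these genes are given as a description and without a test.

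Chromatin-associated RNA, which is mostly nascent transcript, was sequenced in 12 libraries. In every line the endogenous promoter of Xist on the 129S X chromosome was replaced by a TetOn promoter, so that doxycycline (Dox) switches on Xist, the RNA that silences the X chromosome carrying it. WT had 1 library without Dox and 1 with Dox. XistDelA, in which the A-repeat of Xist is deleted, had 3 clones (C1, 2C2 and C11) in each state. XistDelm6A/T1_11C, with a deletion of an m6A region of Xist and called 11C from here on, had 2 replicates in each state. Dox was given for 24 h at 1.0 to 1.5 µg/mL. The sample titles give XistDelA for all 3 clones, but the columns of the count files name the deletion del_A6 in C11 and del_A8 in C1 and 2C2. The study describes a precise deletion of the A-repeat, which keeps the m6A region, and a larger earlier one, but it does not use these names, so which clone carries which deletion is not given in the sources used here. The loss is seen in this single clone, so that its 2 libraries differ from the rest in clone, in the name of the deletion and in chromosome 1, which cannot be told apart.

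Total gene counts ranged between 18893447 and 36007145 per library (median 26552191), and from 44.6% to 47.1% of them were assigned to a parental genome by sequence variants. Markers of embryonic stem cells were present. Of these 8 genes, Zfp42 had the highest level in 10 of 12 libraries and Esrrb in 2 libraries of 11C, and their summed level lay between 1469 and 2234 CPM (counts scaled to library size) in every library. Sox2 alone was listed at 0 in all 12 libraries. Sox2 lies inside Sox2ot on the same strand, and featureCounts by default leaves out read pairs that overlap 2 genes. Whether this accounts for the listed 0 was not tested.

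In a hybrid line, the parental genome of a read can be told wherever it covers a sequence variant. Most autosomal genes are transcribed from both alleles, so the 129S share of the allelic counts of a gene, 129S/(129S + Castaneus), is near the middle of its range. Where an allele is missing, its share goes to 0, and the total level shows whether the remaining allele is transcribed at its usual level or at a higher one. RNA alone does not show whether the 129S DNA is absent or present and silent, and DNA was not measured.

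The label of the segment held for most but not all of its genes. Of 115 members, 81 had a mean of at least 10 allelic counts over all libraries, and 74 had a mean of at least 50 total counts. Another 4 had no count in any library. In order of position, 15 members lie before Nvl, and the 12 of them with enough allelic counts kept both alleles in C11. The other 100 members run from Nvl to the end of the segment, and most of the 69 with enough allelic counts had almost no 129S counts in C11. Ephx1 was the last member before Nvl that could be measured. Ephx1 encodes microsomal epoxide hydrolase and lies on the minus strand of chromosome 1 from 180989555 to 181017495 (ENSMUSG00000038776.13). Its 129S share in C11 was 0.485 without Dox (95% Wilson interval 0.400 to 0.570) and 0.382 with Dox (0.308 to 0.461), against 0.424 to 0.582 in the other 10 libraries. Nvl, which encodes an AAA ATPase of ribosome making, lies on the same strand from 181093422 to 181144157 (ENSMUSG00000026516.8). Its 129S share in C11 was 0.0127 (0.00815 to 0.0198) without Dox and 0.0146 (0.00956 to 0.0222) with Dox, against 0.566 to 0.652 elsewhere. The intervals cover counting error only, since the reads carry no molecular identifiers. The change in measured share thus fell between these genes, whose spans lie 75927 bases apart. The stretch between them holds 1 further member with too few counts to place it. Shares are taken over whole gene spans, so a point of change inside the span of either gene cannot be told from one in this stretch. This split, the place where the share in C11 changes most, was chosen after the data were seen.

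At the 180 Mb threshold itself both alleles were present in C11. The 3 genes with enough allelic counts just outside it, Sccpdh, Ahctf1 and Cdc42bpa, had mean 129S shares of 0.530, 0.504 and 0.493 in C11, and the 3 just inside it, Adck3, Psen2 and Itpkb, had 0.500, 0.605 and 0.589. Their total log2 changes in C11, relative to C1 and 2C2, were -0.28, 0.13 and -0.21 outside and 0.13, 0.30 and 0.29 inside.

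**Figure D1:**
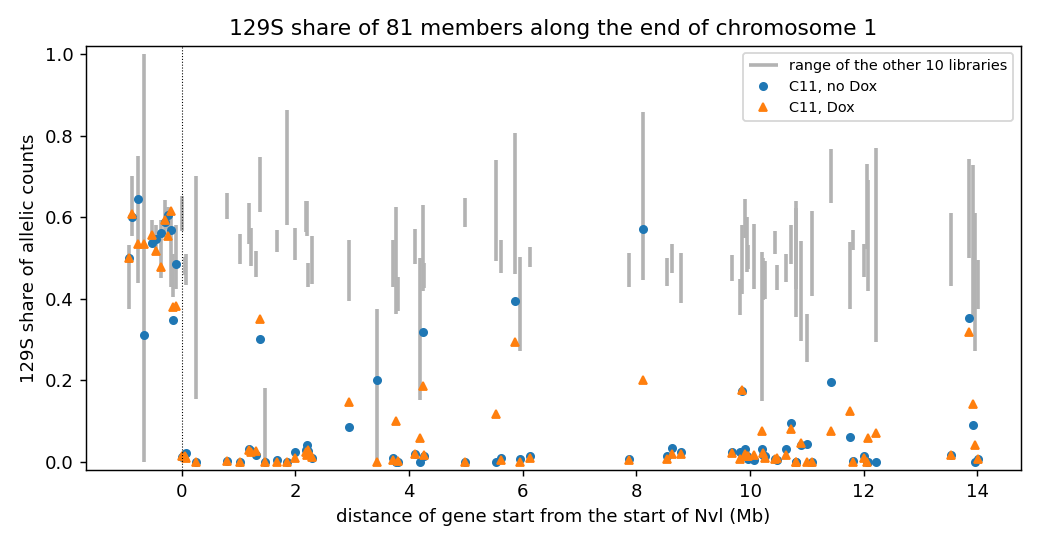
129S share of allelic counts (vertical axis) for 81 members against the distance of the gene start from the start of Nvl in Mb (horizontal axis). Circles and triangles are C11 without and with Dox, and grey bars span the other 10 libraries; to the left of 0 the C11 points lie among or near the bars, and to the right most lie near 0.

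Summed over the 100 members from Nvl on, C11 had 578 129S counts of 37903 allelic counts without Dox, a share of 0.0152 (95% Wilson interval 0.0141 to 0.0165), and 480 of 38078 with Dox, a share of 0.0126 (0.0115 to 0.0138). In the other 10 libraries this share ran from 0.520 to 0.573, with a median of 0.547. Over the 15 members before Nvl, C11 had 0.552 (0.541 to 0.564) without Dox and 0.547 (0.535 to 0.558) with Dox, and the other 10 libraries had 0.553 to 0.572. C11 was slightly below that range there, by less than the intervals. Among these 15, Tmem63a had shares of 0.349 and 0.381 in C11, under its lowest value elsewhere, 0.405. A floor for such shares can be read from the 192 X-linked genes that start distal of Xist and have enough allelic counts, which carry almost no 129S counts in any library. Their pooled 129S share was 0.00915 and 0.00800 in C11, and at most 0.0146 in the other 10 libraries.

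Of the 69 members from Nvl on with enough allelic counts, 56 had a 129S share under 0.1 in both C11 libraries, and 37 had a mean share under 0.02. None of the 12 measured members before Nvl had a share under 0.1 in both. Over all genes with enough allelic counts, 2.08% were under 0.1 in both C11 libraries (282 of 13549), 174 of them X-linked. These counts use the contrast that chose the segment.

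Total levels were lower as well. Of the 63 members from Nvl on with enough counts, 52 were lower in both C11 libraries than in each of the other 10 libraries. None of the 11 such members before Nvl was, against 4.05% of all 12283 genes with enough counts (498 genes). The median change of the 63 members in C11 was -0.97 on the log2 scale, as the mean over both Dox states and relative to clones C1 and 2C2, with quartiles of -1.13 and -0.80. The median was 0.08 for the 11 members before Nvl and 0.01 for 644 genes on the rest of chromosome 1. In such bulk libraries fewer cells of a type and less RNA per cell cannot be told apart. In contrast, the Castaneus counts alone had a median change of 0.02 over 69 members from Nvl on (quartiles -0.16 and 0.22), against 0.03 for 730 genes on the rest of chromosome 1 (-0.15 and 0.16).

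The comparison line mattered for the size of these values. Relative to WT the members from Nvl on had a median total change of -0.81 and a median Castaneus change of 0.07. Relative to 11C the values were -0.76 and 0.24. Genes on the other autosomes and the rest of chromosome 1 also shifted against 11C, with a median Castaneus change of 0.13 over 12961 autosomal genes outside the segment, and the members before Nvl were 0.27 higher in Castaneus counts. The 11C libraries differed from C1 and 2C2 at the same genes without any loss, with a median Castaneus change of -0.22 over the members from Nvl on and -0.08 over the autosomes.

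**Figure D2:**
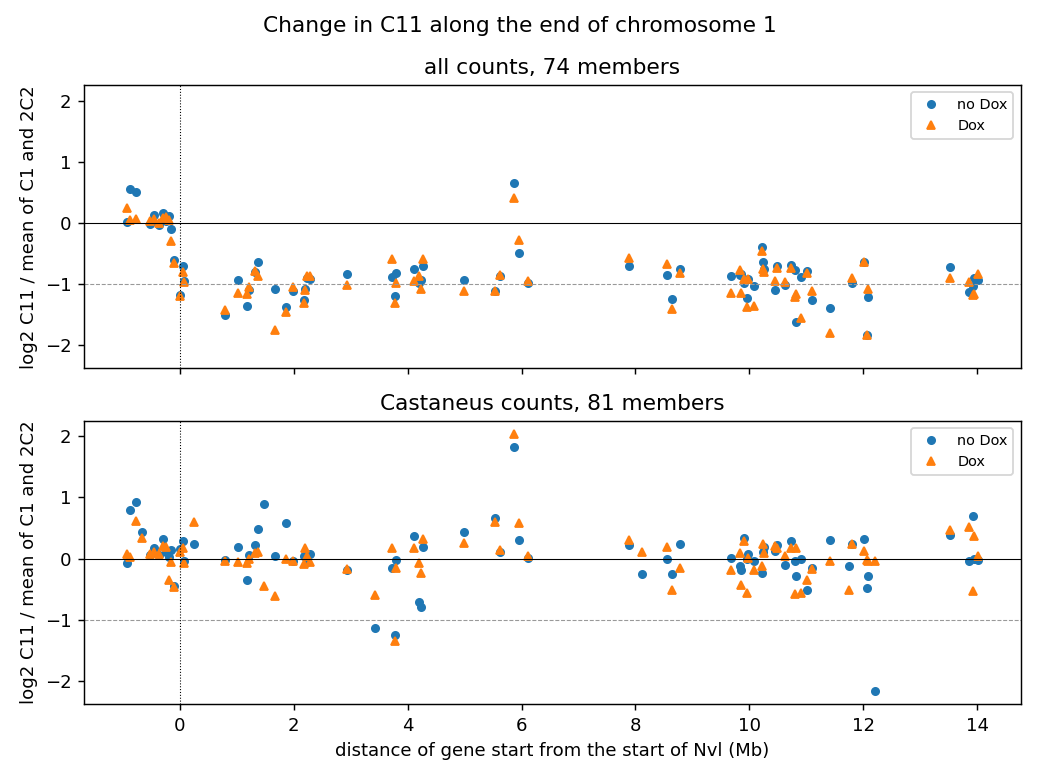
Log2 change in C11 relative to the mean of clones C1 and 2C2 (vertical axis) against the distance of the gene start from the start of Nvl in Mb (horizontal axis), for all counts of 74 members (top) and Castaneus counts of 81 members (bottom). Circles are without and triangles with Dox, and the dashed line marks -1; most total changes to the right of 0 lie near -1 and most Castaneus changes lie around 0.

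The change did not depend visibly on distance from Nvl. The median total change was -1.01 over 25 members in the first 5 Mb, -0.91 over 15 members in the next 5 Mb, and -0.99 over 23 members beyond.

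Members differed from each other in how far they were lowered. If only the Castaneus allele remains at its usual level, a gene is expected to change by log2(1 - s), where s is its 129S share when both alleles are present. With s pooled over the WT and 11C libraries, which do not enter the change itself, s ran from 0.333 to 0.727 over the 63 members, with a median of 0.496. Observed and expected changes had a Pearson correlation of 0.457 and a Spearman correlation of 0.573 across these 63 genes, which share libraries and are not independent replicates. With almost no 129S counts and Castaneus counts near their usual level, such a relation follows by arithmetic, and it is given as a description only. The observed minus the expected change had a median of 0.05, with quartiles of -0.07 and 0.18, and 46 of 63 genes were within 0.25. The total change of 635 genes on the rest of chromosome 1 had quartiles of -0.13 and 0.12.

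**Figure D3:**
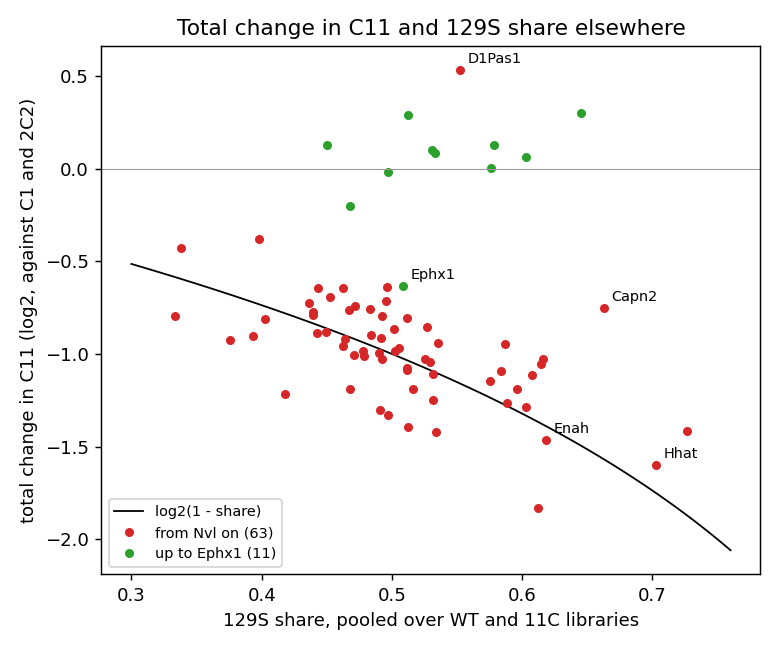
Total log2 change in C11 relative to C1 and 2C2 (vertical axis) against the 129S share pooled over the WT and 11C libraries (horizontal axis), for 63 members from Nvl on and 11 members up to Ephx1. The line is log2(1 - share); most members from Nvl on lie near it, with D1Pas1 and Capn2 above.

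Enah encodes an actin regulator of the Ena/VASP family and lies on the minus strand from 181896385 to 182019980 (ENSMUSG00000022995.16). It had the highest level per length of all members, 13.3 CPM per kb as a mean over the other 10 libraries, ahead of Dtl with 7.64 and H3f3a with 6.76. Its level was 752 CPM in C11 without Dox and 664 CPM with Dox. Enah ran from 1043 to 2147 CPM in the other 10 libraries with a median of 1671. The groups did not overlap. Enah leaned to 129S elsewhere, with a mean share of 0.631 over the other 10 libraries. Its total change was -1.47, where -1.39 is expected from its share of 0.618 pooled over WT and 11C. The Castaneus counts of Enah had a change of -0.03.

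Low total changes were also seen at Hhat (-1.60), Susd4 (-1.42) and Tlr5 (-1.41). Hhat, the acyltransferase of Hedgehog proteins, had a mean share of 0.707 outside C11. Tlr5, a receptor for bacterial flagellin, had 0.721 and was also low in 11C, down to 1.26 CPM, so that its C11 values of 2.07 and 1.46 CPM overlapped with the others. The members with the highest total change were D1Pas1 (0.53), from beyond Nvl, and 4 members before it, Psen2 (0.30), Itpkb (0.29), Adck3 (0.13) and H3f3a (0.12).

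The members were also grouped by role, as a description only. Of all members from Nvl on with enough counts, 52 of 63 (82.5%) were below the other libraries. Over all genes this was 4.05%. Of 11 listed genes of chromatin and transcription, 7 had enough counts, and 3 of these lie before Nvl. Parp1, which makes poly(ADP-ribose) at DNA breaks, was at 193 and 187 CPM in C11 and at 170 to 240 CPM elsewhere. H3f3a, which encodes histone H3.3, was at 101 and 81.3 CPM against 48.9 to 99.2 CPM, and Lin9, a subunit of the DREAM complex, was at 60.1 and 55.6 CPM against 36.5 to 57.3 CPM. All 3 kept both alleles, though the 129S share of Parp1 in C11 without Dox, 0.538, was just under its lowest value elsewhere, 0.551. Of the 4 beyond Nvl, 3 were below the other libraries, with a median total change of -0.84 over the 4. Ints7, a subunit of the Integrator complex, was at 100 and 88.2 CPM, under the lowest of the other libraries, 109 CPM. The exception was Taf1a, a subunit of the SL1 factor of ribosomal RNA genes, at 14.1 and 13.7 CPM against 13.1 to 28.0 CPM.

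All 5 genes listed under cell division lie beyond Nvl and had enough counts, with a median total change of -0.80, and 3 were below all other libraries. Cenpf, a kinetochore protein, was at 154 and 163 CPM in C11 and at 198 to 370 CPM elsewhere. Trp53bp2 was at 33.0 and 31.0 CPM against 50.4 to 61.6 CPM. Dtl, the substrate receptor of a ubiquitin ligase in replication, was at 179 and 149 CPM in C11 and ran from 165 to 415 CPM elsewhere, so that its groups overlapped through 11C replicate 1. Nek2, a centrosome kinase, overlapped as well, with 41.3 and 30.4 CPM against 35.5 to 72.1 CPM.

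Of translation and ribosome making, 7 genes were listed. All 7 lie beyond Nvl, and all 7 were below the other 10 libraries in both C11 libraries, with a median total change of -0.86. Of all members from Nvl on, 82.5% were, against 4.05% of all genes. Eprs, a transfer RNA synthetase, was at 240 and 231 CPM against 269 to 397 CPM. Nvl was at 88.9 and 81.8 CPM against 135 to 210 CPM. Iars2, the mitochondrial isoleucine transfer RNA synthetase, was at 43.1 and 43.9 CPM against 68.5 to 87.8 CPM. Rrp15, a ribosome assembly factor, was at 45.8 and 41.6 CPM against 54.8 to 85.8 CPM.

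Metabolism had 7 members with enough counts, of which the 4 beyond Nvl were all below the other libraries, with a median total change of -1.02. Degs1, the desaturase that completes ceramide, was at 18.6 and 14.9 CPM against 23.6 to 53.3 CPM. Lyplal1 was at 11.9 and 12.8 CPM against 20.0 to 35.9 CPM, and its C11 libraries held 0 129S counts of 229 and 0 of 246, which allow shares of up to 0.0131 and 0.0122. Ephx1, before Nvl, kept both alleles, yet its total change was -0.63. It also varied widely among the other libraries, from 10.0 to 34.6 CPM, with the 11C libraries highest, and its C11 values of 8.16 and 10.5 CPM overlapped with them.

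Of 8 genes of transport and trafficking with enough counts, 6 lie beyond Nvl and 5 of these were below the other libraries, with a median total change of -0.92 over the 6. The exception was Mfsd7b, also named Flvcr1, a heme exporter, at 17.6 and 16.3 CPM against 13.8 to 36.7 CPM. Rab3gap2 was at 54.1 and 46.9 CPM against 71.1 to 103 CPM, and Mia3, which exports collagen from the endoplasmic reticulum, at 38.9 and 35.3 CPM against 53.7 to 74.8 CPM. Brox and Cnih4 had total changes of -1.29 and -0.76. The 13 genes of signalling had enough counts, 11 of them beyond Nvl. All 11 were below the other libraries, with a median of -1.09, where 82.5% of all members from Nvl on were. Wdr26 was at 103 and 93.1 CPM against 108 to 214 CPM, Rps6kc1 at 52.6 and 53.1 CPM against 93.6 to 151 CPM, and Ppp2r5a, a regulatory subunit of protein phosphatase 2A, at 63.5 and 51.1 CPM against 74.0 to 117 CPM. Of 6 genes of the cell surface with enough counts, all beyond Nvl, 3 were below the other libraries, with a median of -1.04. Plxna2, a semaphorin receptor, was at 24.2 and 23.8 CPM against 33.9 to 61.3 CPM, and Kcnh1 at 2.23 and 2.88 CPM against 4.15 to 7.75 CPM. Cr1l was at 53.6 and 48.9 CPM and Cd34 at 4.30 and 3.75 CPM, and both overlapped with the other libraries, whose lowest values were 47.3 and 4.26 CPM.

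**Figure D4:**
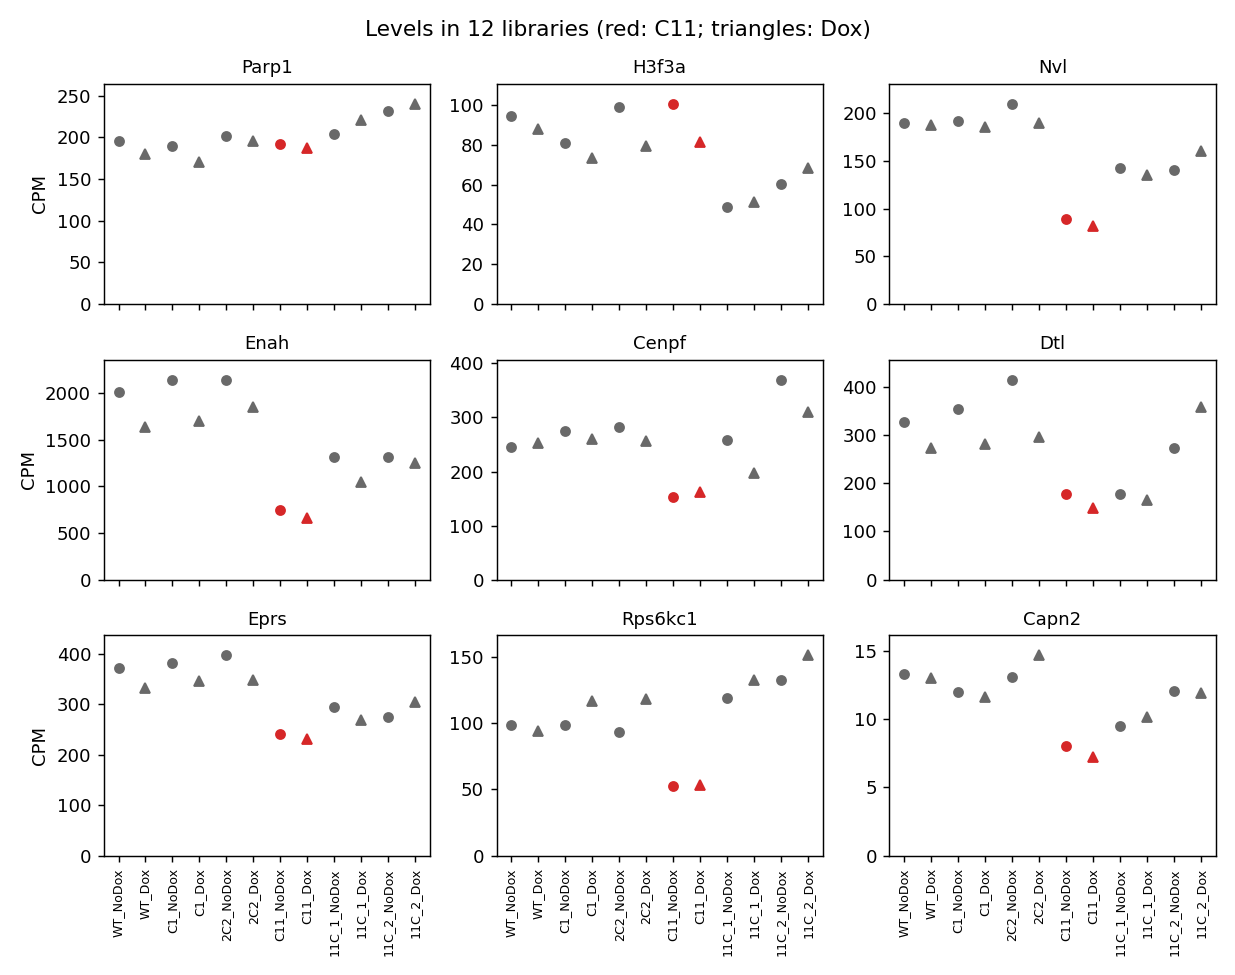
Levels in CPM (vertical axes, from 0) of 9 members in each of the 12 libraries (horizontal axes), with C11 in red and Dox libraries as triangles. Parp1 and H3f3a, before Nvl, are not lowered in C11, and Nvl, Enah, Cenpf, Eprs, Rps6kc1 and Capn2 have both C11 libraries below the others.

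The RefSeq table (GRCm38.p6) places 9 microRNA genes, with 16 mature microRNAs, in the segment from Nvl on. Mir297c, a member by its span in the count files (chr1:185537335-185988795), is not placed there by that table, and with a mean of 12.7 counts it had too few to be described. Mature microRNAs were not measured, but some hairpins lie within members whose levels are given. The mature sequences below were chosen to show the pair of the segment that shares a seed (bases 2 to 8, in capitals), and a microRNA of each of 2 further hosts on the same strand:
mmu-miR-29b-3p: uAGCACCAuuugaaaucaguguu
mmu-miR-29c-3p: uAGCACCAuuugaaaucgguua
mmu-miR-664-3p: uAUUCAUUuacuccccagccua
mmu-miR-1981-5p: gUAAAGGCugggcuuagacguggc
The sequences of miR-29b-3p (chr1:195037091-195037113) and miR-29c-3p (chr1:195037600-195037621) lie on the plus strand within A330023F24Rik. This long RNA was at 6.57 and 7.38 CPM in C11 and at 9.37 to 35.6 CPM elsewhere, with the 11C libraries among the highest, and its total change was -1.11. It had 1 129S count of 11 allelic counts in C11 without Dox, a share of 0.0909 (0.0162 to 0.377), and 1 of 7 with Dox, a share of 0.143 (0.0257 to 0.513), too few to tell whether 129S RNA was kept. The sequence of miR-664-3p (chr1:185243012-185243033, plus strand) lies within Rab3gap2, and that of miR-1981-5p (chr1:184822465-184822488, minus strand) within Marc2, which was at 6.17 and 8.35 CPM against 9.78 to 15.6 CPM.

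Some members beyond Nvl kept 129S counts in C11. A 129S share over 0.1 in both C11 libraries was seen at Capn2, Bpnt1, D1Pas1, Kcnk2, Vash2 and Cd34. Capn2, which encodes a subunit of the protease calpain, had 0.302 (95% Wilson interval 0.226 to 0.391) without Dox and 0.351 (0.269 to 0.442) with Dox, against 0.613 to 0.748 elsewhere. It held 75 of the 1058 129S counts of C11 beyond Nvl (7.09%). D1Pas1, a germ cell helicase gene without introns, had 0.395 (0.264 to 0.544) and 0.294 (0.168 to 0.462). D1Pas1 is a close copy of Ddx3x, and whether some of its reads come from that gene was not tested. The Castaneus counts of D1Pas1 had a change of 1.94. Vash2 had 0.175 (0.0982 to 0.294) and 0.178 (0.0929 to 0.313). Kcnk2 and Cd34 had at most 22 allelic counts in a C11 library.

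Allelic counts made up a small part of all counts at some of these genes. At Bpnt1, 6.46% of all counts were allelic. Its 23 129S counts in C11 were 1.83% of its counts there, against 3.20% elsewhere. At Nvl 64.8% were allelic, and the 129S counts were 0.906% in C11, against 38.8% elsewhere. At Capn2 60.6% were allelic, and 129S counts made up 19.0% of its counts in C11, against 41.1% elsewhere. The cells were grown on feeder fibroblasts and, by the methods of the study, were freed of feeders by pre-plating before the RNA was extracted. Markers of such fibroblasts were low. The 7 markers summed to 8.92 and 8.39 CPM in C11 and to 3.74 to 13.8 CPM over all libraries, with Col1a2 highest in 10 of 12 libraries and Thy1 in 2 libraries of 11C. Lum was at 0 in 10 of 12 libraries. In C11, 114 of 164 allelic counts of these markers were 129S. The part of feeder RNA in the residual 129S counts was not tested. Primitive endoderm markers summed to 12.1 to 34.8 CPM and were highest in 11C. Of these 5 genes, Gata4 had the highest level in the 6 libraries of 11C and C11, and Pdgfra in the 6 libraries of WT, C1 and 2C2.

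Outside C11, the members were close to the rest of the genome in allelic balance. Their mean 129S share over the other 10 libraries had a median of 0.505 over 81 members, against 0.528 on the rest of chromosome 1. Capn8 was the only member with a mean share under 0.2 or over 0.8, at 0.0952. It was not lowered in C11, with 2.23 and 1.50 CPM against 1.04 to 3.05 CPM. From its share in WT and 11C, a change of only -0.14 is expected without the 129S allele. Capn8 had 0 129S counts of 38 and 0 of 18 in C11, which allow shares of up to 0.0789 and 0.167. Its share in the other 10 libraries ran from 0 to 0.182, so these counts do not show whether 129S RNA was lost.

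The Dox response was not used to choose the members. A fit without the clone as a block, however, takes the gap between C11 and the other clones as spread, and this gap is what the members were chosen by. Its counts of members are therefore given as a description, and the fit with the block is the test that does not carry this gap. The question is whether genes of this segment respond to Dox, which switches on Xist on another chromosome. Dox itself and Xist expression cannot be told apart in these libraries. In the A-repeat clones, none of 89 members tested passed an adjusted p of 0.05 with edgeR's quasi-likelihood test, where 3 of 14866 genes did (0.0202%). Of the members, 3 had an unadjusted p under 0.05 (3.37%), against 14.5% of all genes. Without C11 these were 13 members (14.6%) against 12.9% of all genes, and without 2C2 they were 1 member (1.12%) against 4.75%. DESeq2 called 1 member, Sde2, against 2.74% of all genes. The clones differ from each other at many genes, and with the clone as a block 33 of 89 members passed (37.1%), against 29.7% of all genes. Of the members, 13 were higher with Dox (14.6%, against 14.8% of all genes) and 20 were lower (22.5%, against 14.9%). The median log2 change of the members was 0.00 against 0.01 over all genes. With the block and without C11, 34 of 89 members and 33.5% of all genes passed. The 33 members that passed with all 3 clones were Ptpn14, Dtl, Sde2, Nek2, Degs1, Atf3, Disp1, Enah, Ppp2r5a, H3f3a, Ephx1, Slc30a1, Susd4, Rcor3, Itpkb, Cd46, Rps6kc1, Cr1l, Gpatch2, Smyd2, Ints7, Spata17, Tlr5, Lyplal1, Brox, Srp9, A330023F24Rik, Eprs, Cnih4, Cd34, Gm16897, Mia3 and Rrp15.

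The lowest adjusted p in the blocked fit was that of Ptpn14, a tyrosine phosphatase, which rose by 0.47 ± 0.06 (log2, SE, 3 clones; edgeR adjusted p = 9.0e-07). This SE and those below come from the F statistic of the fit, and are not the SE of the 3 clone values. Ptpn14 was higher in 3 of 3 clones, with 0.43 for C1, 0.61 for 2C2 and 0.35 for C11. Dtl fell by 0.36 ± 0.05 (edgeR adjusted p = 2.1e-06) and Nek2 fell by 0.40 ± 0.06 (edgeR adjusted p = 1.1e-05), each lower in 3 of 3 clones. Sde2, a genome stability factor that keeps both alleles in C11, fell by 0.42 ± 0.06 (edgeR adjusted p = 3.7e-06), by nearly the same amount in C1 (-0.41), 2C2 (-0.46) and C11 (-0.38). Without the block its adjusted p was 0.185, and that of Ptpn14 was 0.660. The WT pair, which has no replicate and enters no test, had changes of 0.03 for Ptpn14, -0.26 for Dtl, -0.18 for Nek2 and -0.34 for Sde2.

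In 11C, none of 86 members passed with edgeR, where 0% of 15140 genes passed. The count of members with an unadjusted p under 0.05 was 0, against 1.14% of all genes, and DESeq2 called 0 members and 0.0198% of all genes. Without a block, and so with the same spread between clones, the difference in Dox response between the A-repeat clones and 11C passed at none of 91 members, where 0% of 15745 genes passed. There 1 member of 91 had an unadjusted p under 0.05, against 1.48% of all genes, and DESeq2 called 0 members and 0.0127% of all genes. With the block, 0.743% of genes and 1 member of 91, Sde2, passed (difference -0.58, edgeR adjusted p = 0.042), which takes the 11C libraries as paired by number.

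**Figure D5:**
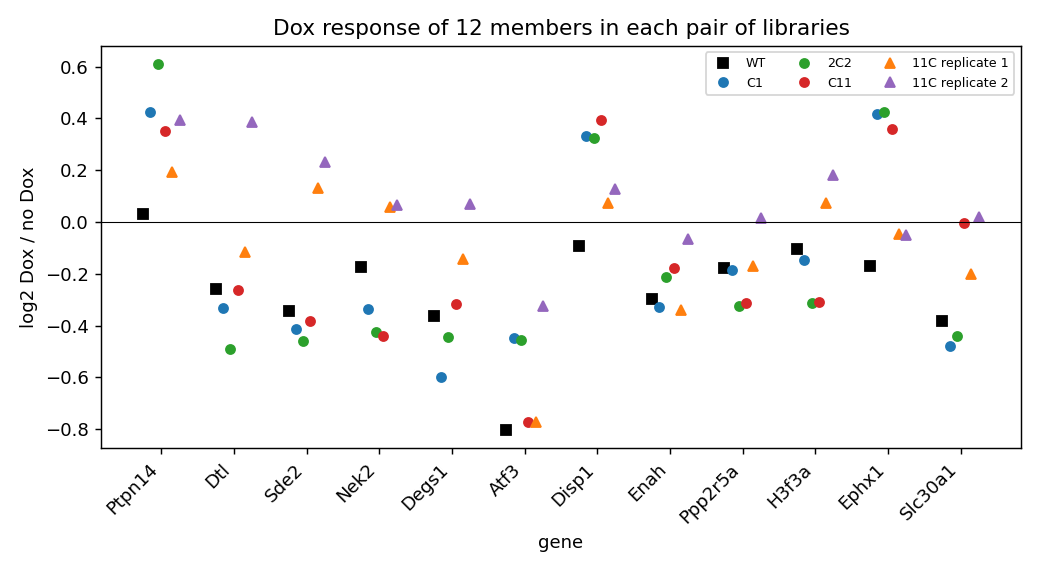
Log2 change with Dox (vertical axis) in each pair of libraries for the 12 members with the lowest adjusted p in the blocked fit of the A-repeat clones (horizontal axis). Circles are the 3 clones, squares WT and triangles the 11C replicates; Sde2 is below 0 in the 3 clones and WT and above 0 in both 11C replicates.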

How the data were processed

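The authors counted read pairs on whole gene spans, introns included and by strand, with featureCounts (version 1.5.2) on mm10 and deposited raw counts for all read pairs and for those assigned to each parental genome. The submitters' processing notes also name Bowtie2 (version 2.3.2) and STAR (version 2.4.2a). Which genome is 129S was read from Xist, whose allelic counts were nearly all from a single genome.

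Levels are CPM with TMM factors from edgeR (version 4.0.16). A change in C11 is the log2 of its normalized counts plus 0.5 minus that of the mean of C1 and 2C2 in the same Dox state, averaged over both states. Genes needed a mean of 50 counts or more, and shares and Castaneus changes a mean of 10 allelic counts or more. Shares of single libraries have 95% Wilson intervals from scipy (version 1.17.1), and a share of 0 is given the limit of 3 counts. Dox tests used edgeR's quasi-likelihood fits over all genes in R (version 4.3.3), with filterByExpr at a minimum count of 10, Benjamini-Hochberg adjustment and a threshold of 0.05. DESeq2 (version 1.42.0) was an alternative. Other alternatives covered normalization, filters, pseudocount, comparison line, Dox state and leaving out replicates. The calculations were tested on simulated data.

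Clone names pair the A-repeat libraries: deviations from the group means of libraries from the same clone had correlations of 0.819, 0.610 and 0.720 over 12283 genes. No 2 libraries of a group agreed within sampling noise. The study's methods call replicates biological, without saying how those of 11C were grown. The p-values rest on the spread between these samples, but not on that of each gene alone. The fits draw each gene's spread toward that of all genes, and more so where a block leaves few libraries to measure it. The members and lists were chosen with earlier results of these data known. Named genes were those of the role lists (with values for up to 4 per list, by mean count), the 5 with the lowest and the 5 with the highest total change, those with a share under 0.2 or over 0.8 outside C11 or over 0.1 in both C11 libraries, 3 on each side of the threshold, those past a Dox test and the 3 with the highest level per length. Of these, 1 is not reported here. Others were chosen after their values were seen. Gene positions are as in the count files. Ensembl identifiers were found by symbol, and 2 listed names (Coq8a and Flvcr1) were matched to their older names in the files by position, and 2 genes of 500000 bases or more were not used.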

Additional observations from a re-analysis of the deposited data

Results flagged for a closer look

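The Dox response of Sde2 differed between the A-repeat clones and 11C in the fit with a block for each clone or replicate, by -0.58 on the log2 scale (edgeR adjusted p = 0.042 over 15745 genes). Sde2 was lower with Dox in 3 of 3 clones and higher in 2 of 2 replicates of 11C (0.13 and 0.23). The fit takes the 11C libraries as paired by number, for which 2 replicates give only a hint, and it called 1 of 91 members against 0.743% of all genes. Without the block Sde2 did not pass. Its level without Dox also differed between the lines, at 55.5 to 66.6 CPM in the 3 A-repeat clones and 18.7 and 27.9 CPM in 11C, and the part of this in the difference was not tested.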

How the results depend on the processing

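The median total change of the members in C11 was -0.92 over all 74 members with enough counts and stayed negative under all 13 alternatives. It was -0.76 relative to WT, -0.71 relative to 11C, -0.79 relative to all other 10 libraries, -0.89 without Dox alone, and -0.97 for the members from Nvl on, an alternative chosen after seeing the data. Leaving out C1 or 2C2 gave -0.88 and -0.91. The median Castaneus change was 0.05 and moved to 0.25 relative to 11C and 0.14 relative to all other 10 libraries; the other 10 alternatives gave 0.01 to 0.07. The median 129S share of 0.0221 was 0.0199 for members averaging 50 or more allelic counts, 0.0204 without Dox, 0.0195 with Dox, 0.0181 from Nvl on and 0.0982 for pooled counts, which include the 129S counts of the members before Nvl. The count of members below the other 10 libraries, 52 of 74 against 4.05% of all genes, was 54 with total counts and 53 with DESeq2 size factors. It was 58 with a mean of at least 10 counts, a filter that lets in more members. For the Dox response in the A-repeat clones, 0 members passed in the fit without a block, 33 with the replicate block, 34 with the block and without C11 (chosen after seeing the data) and 1 with DESeq2; the other 5 alternatives gave 0. For the difference between the lines the replicate block gave 1 and the other 7 alternatives 0, and all 6 alternatives for 11C gave 0. In 11C the block moved the calls over all genes from 0 to 237, with 5 of 86 members (5.81%) at an unadjusted p under 0.05 against 8.02% of all genes, and same-numbered libraries had a correlation of 0.771, but with 2 replicates this is only a hint at pairing. Where 11C was left with 1 library in a state, that library was assumed to vary like the A-repeat clones. The cause of these differences was not tested. Depth limits the members with under 10 allelic counts, for which no share is given.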

Other observations

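Some members differed between the lines that kept both alleles. Traf5, an adaptor of TNF receptor signalling, was at 9.40 to 11.2 CPM in the 4 libraries of 11C and at 4.18 to 6.10 CPM in the 6 libraries of WT, C1 and 2C2. This gene was chosen after its values were seen, and the difference was not tested.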
